A study of Mus musculus with 10 samples.

Results

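The expression of 10 genes that mark fat cells (adipocytes) was followed through 10 KPC orthotopic pancreatic tumors of mice, to ask gene by gene and tumor by tumor whether they agreed as a sign of fat tissue in the sample. They were chosen by name as Adipoq, Lep, Retn, Plin1, Plin4, Cidec, Fabp4, Lipe, Lpl and Aqp7, and each matched 1 of the 55359 mouse Ensembl identifiers in the table. The tumors grew from KPC K8484 cells, a single luciferase-expressing mouse pancreatic cancer line carrying Trp53 R172H/+ and Pdx1-Cre among its alleles, injected into the tail of the pancreas of C57BL/6 J mice aged 10 weeks. The methods of the study give equal numbers of both sexes for such mice, the sex of these 10 is not given in the sources used here, and no chemotherapy entered the compared groups. Reads of 4 Y-linked genes were found in a single tumor, T4 (841 reads), and a part of sex in the values was not tested. In the normoglycemic group 5 mice drank regular water, and in the hyperglycemic group 5 mice drank 30% dextrose water (D30) for 14 days. The titles in the labels say PDX, while the named source is the mouse line. The columns of the table are N1, N2, N4, N5 and N6 for the normoglycemic tumors, by their letter, and T1, T2, T4, T5 and T7 for the D30 tumors as the remaining group. Which mouse gave which column is not given in the sources used here.

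Adipocytes store triacylglycerol in a large lipid droplet and release fatty acids and glycerol from it on demand. Lipoprotein lipase (Lpl) frees fatty acids from circulating lipoproteins, Fabp4 carries them inside the cell, perilipins (Plin1, Plin4) and Cidec coat and enlarge the droplet, hormone-sensitive lipase (Lipe) breaks its contents down, and the channel Aqp7 lets glycerol out. Adipocytes also secrete hormones, of which adiponectin (Adipoq), leptin (Lep) and, in mice, resistin (Retn) are the best known. Adipoq, Lep and Plin1 are made almost entirely by adipocytes, whereas Fabp4 and Lpl are also made by macrophages and by endothelial or muscle cells, and lipid droplet genes can be expressed in other cells that store fat. Fat tissue lies around the pancreas.

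Of the 10 genes, 4 (Adipoq, Lep, Retn and Plin1) were at or near 0 in 9 tumors and high in 1 normoglycemic tumor, N4. Fabp4 was also highest in N4, while Plin4, Cidec, Lipe, Lpl and Aqp7 had reads in every tumor and were not highest there. None of the 10 genes passed limma's test between D30 and normoglycemic tumors, and Aqp7 came nearest, being lower in D30.

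The start regions of the 4 genes that rose together in N4 are shown, since these genes set N4 apart. Each is the run of 250 bases before the transcription start in RefSeq (GRCm38.p6), 5′ to 3′ on the strand of the gene, at chr16:23146286-23146535 (plus strand) for Adipoq, chr6:29059971-29060220 (plus) for Lep, chr7:79732777-79733026 (minus) for Plin1 and chr8:3655520-3655769 (plus) for Retn. Capitals mark the letters matched by the motifs given after them.
Adipoq: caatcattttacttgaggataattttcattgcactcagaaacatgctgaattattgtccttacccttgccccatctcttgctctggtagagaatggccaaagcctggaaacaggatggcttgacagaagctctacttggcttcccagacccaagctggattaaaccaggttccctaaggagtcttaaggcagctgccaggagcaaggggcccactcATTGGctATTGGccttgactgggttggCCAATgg
Lep: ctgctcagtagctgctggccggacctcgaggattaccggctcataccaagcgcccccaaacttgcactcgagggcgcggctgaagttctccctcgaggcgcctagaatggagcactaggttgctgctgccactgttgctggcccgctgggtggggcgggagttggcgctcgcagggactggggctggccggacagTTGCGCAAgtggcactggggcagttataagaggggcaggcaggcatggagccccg
Plin1: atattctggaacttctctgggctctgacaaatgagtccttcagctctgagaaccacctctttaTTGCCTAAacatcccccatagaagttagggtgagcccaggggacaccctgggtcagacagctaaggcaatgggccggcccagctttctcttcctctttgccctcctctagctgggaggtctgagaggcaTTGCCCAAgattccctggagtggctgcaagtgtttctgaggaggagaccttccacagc
Retn: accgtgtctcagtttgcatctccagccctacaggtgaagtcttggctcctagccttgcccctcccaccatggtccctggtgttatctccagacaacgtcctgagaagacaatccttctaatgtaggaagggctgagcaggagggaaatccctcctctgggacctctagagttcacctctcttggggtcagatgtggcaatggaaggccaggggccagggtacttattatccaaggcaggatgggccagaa

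On either strand, 5 motifs were searched for. TTGCNNAA, which C/EBP factors bind, was found in Lep and in 2 places of Plin1, and it occurs in 9.56% of the 32851 mouse promoter windows of this length. CCAAT was found in 3 places of Adipoq and occurs in 33.85% of all windows. TATAAA, which 12.4% of windows hold, AGGTCA, which 14.02% hold, and its direct repeat AGGTCANAGGTCA, a form of the PPAR-RXR element that contains AGGTCA and occurs in 0.0335%, were in none of the 4 windows shown, and Retn had no match to any of the 5. Of the other members with a window, Cidec held TTGCNNAA, Plin4 held CCAAT, Aqp7 held AGGTCA and Lipe none. Windows were given for 8 of the 10 genes, Fabp4 and Lpl being the other two. A match describes letters and does not show that a factor binds.

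Several tumors stood apart, among them T5, with the fewest genes with reads (20482, against 23446 to 25912) and the highest sums of mesothelial, neutrophil and tumor epithelium markers. T4 was the highest in the summed normalized count of macrophage markers (74652.2, against 12986.7 to 63093.6 in the other 9), of which Lyz2 alone gave 46217.0. Of the 12 macrophage genes 5 were highest in T4, and 1, Csf1r, was lowest there (692.8, against 1135.5 to 3527.7). T4 was also the lowest in the sums of endothelial and fibroblast markers, and it alone held reads of 4 Y-linked genes (841 reads, with 0 in the other 9). N4 stood apart through the adipocyte genes described here. Recovered reads numbered 29915331 to 42122304 per normoglycemic tumor and 29192261 to 37126175 per D30 tumor, so that 1 read was worth 0.723 to 1.16 normalized counts. The labelled tumor tissue expressed the epithelial keratin gene Krt8 at 60374.2 to 179472.8 normalized counts in all 10 tumors, while the epithelial marker Epcam lay between 0 and 191.5. These are bulk samples, in which fewer cells of a type and less RNA per cell cannot be told apart.

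Among the secreted hormones, Adipoq (chromosome 16: 23146536 to 23158028, GRCm38) had normalized counts of 0.0 in N1, 2.9 in N2, 271.4 in N4, 3.5 in N5 and 0.0 in N6. In the D30 tumors it had 4.1 in T1, 1.1 in T2, 0.0 in T4, 0.0 in T5 and 7.5 in T7. N4 was the only tumor above 10, with 297 reads against 20 reads in the other 9 together, 36.4 times the next tumor.

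Lep (chromosome 6: 29060220 to 29073877) had 13.7 normalized counts, or 15 reads, in N4 and 0.0 in all other tumors of both groups. A count of 0 reads allows up to 3 reads, which is 2.17 to 3.47 normalized counts in these libraries, for counting error alone. Lep passed the filter on low values through N4 alone, and no fold change between the groups is given for it, since both group means lay at or below that floor.

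Retn (chromosome 8: 3655770 to 3660110) had 2.1 in N1, 0.0 in N2, 132.5 in N4, 0.9 in N5 and 4.3 in N6, against 5.1 in T1, 0.0 in T2, 1.2 in T4, 0.0 in T5 and 5.3 in T7. As for adiponectin, every tumor but N4 was near the floor, in either group.

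Of the proteins of the lipid droplet, Plin1 (chromosome 7: 79720218 to 79732903), the main perilipin of fat cells and a gatekeeper of lipolysis, followed the hormones. It had 0.0 in N1, 0.0 in N2, 116.0 in N4, 0.9 in N5 and 0.0 in N6, and in D30 it had 0.0 in T1, 5.7 in T2, 0.0 in T4, 2.3 in T5 and 3.2 in T7. Together, Adipoq, Lep, Plin1 and Retn had 584 reads in N4, and between 1 and 15 reads in each of the other 9 tumors.

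Plin4 (chromosome 17: 56100591 to 56109803), a perilipin of newly formed droplets, did not share this pattern. Its normalized counts were 304.0 in N1, 687.5 in N2, 718.1 in N4, 1082.7 in N5 and 594.7 in N6, against 391.7 in T1, 631.2 in T2, 185.1 in T4, 700.6 in T5 and 398.4 in T7. N5 was the highest and T4 the lowest. The gene overlaps Hdgfl2 on the opposite strand, and whether reads were counted by strand is not given in the sources used here, so that its values could hold reads of that gene.

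Cidec (chromosome 6: 113424634 to 113435760), which fuses small droplets into larger ones, was the steadiest of the 10 genes. It had 1901.0 in N1, 1541.9 in N2, 2288.7 in N4, 1973.3 in N5 and 1926.0 in N6, and 1806.5 in T1, 1955.3 in T2, 2301.7 in T4, 1841.8 in T5 and 1837.5 in T7. The groups overlapped, and N4 was 0.994 of T4, the highest tumor.

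For the handling of fatty acids, Fabp4 (chromosome 3: 10204088 to 10208576) had 645.9 in N1, 516.9 in N2, 1723.1 in N4, 271.8 in N5 and 497.1 in N6. In D30 it had 244.7 in T1, 529.2 in T2, 993.5 in T4, 410.9 in T5 and 547.5 in T7. N4 was 1.73 times T4, the next tumor, and 3.33 times the median of the other 9, so that the gene had a level of its own in the tumors without the hormone reads.

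Lpl (chromosome 8: 68880491 to 68907448) had 1605.4 in N1, 1301.9 in N2, 1385.1 in N4, 887.9 in N5 and 1095.2 in N6, against 739.3 in T1, 670.1 in T2, 2957.5 in T4, 341.1 in T5 and 696.7 in T7. All 5 normoglycemic tumors were above 4 of the 5 D30 tumors, and T4 was above all. Of the 9 listed partners of Lpl, 3 (Gpihbp1, Cd36 and Angptl8) were highest in T4 and 3 (Lmf1, Apoc2 and Sel1l) were lowest there. The fatty acid transporter Cd36 had 2204.5 there against 50.5 to 476.9 elsewhere, and Gpihbp1, which carries Lpl to the capillary wall, had 2378.0 against 270.2 to 902.6. Fabp5, a relative of Fabp4, was highest in T4 as well (9472.6 against 449.3 to 923.7), beside the macrophage markers given before, of which 5 of 12 were highest there, and their part in the Lpl value was not tested.

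Among the genes of fat release, Lipe (chromosome 7: 25379527 to 25398710) had 231.4 in N1, 520.5 in N2, 688.0 in N4, 489.6 in N5 and 505.7 in N6, and 520.3 in T1, 616.3 in T2, 143.4 in T4, 579.2 in T5 and 706.2 in T7. T7 was the highest and T4 the lowest. It overlaps the gene 4732471J01Rik on the opposite strand, with the same limit as for Plin4.

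Aqp7 (chromosome 4: 41033074 to 41048139) had 55.8 in N1, 60.0 in N2, 36.5 in N4, 62.9 in N5 and 59.9 in N6. The D30 tumors had 14.4 in T1, 12.6 in T2, 31.2 in T4, 36.6 in T5 and 6.4 in T7. All D30 tumors were below 4 of the normoglycemic ones, and the groups overlapped through N4, the lowest of its group, which lay just under T5.

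**Figure D1:**
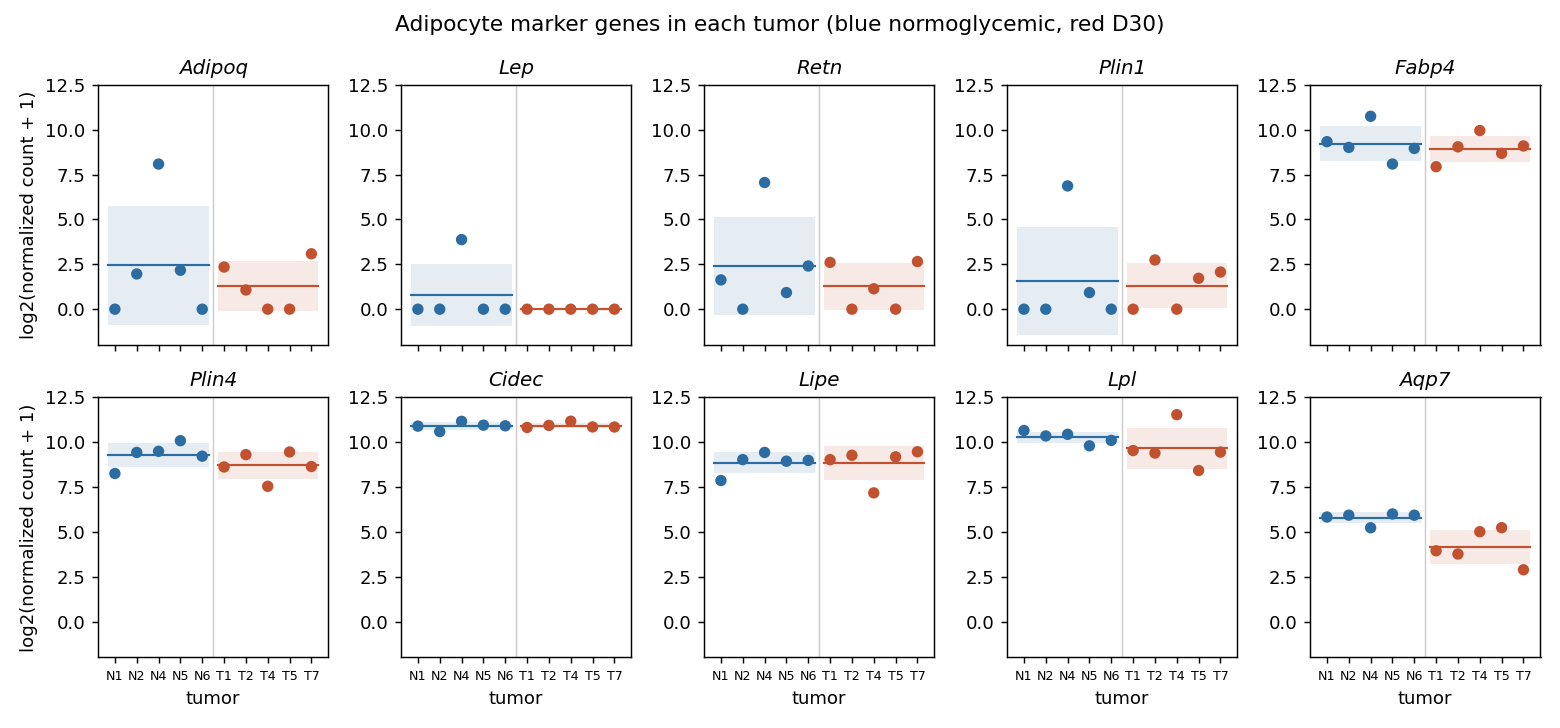
Each panel plots log2(normalized count + 1) of a gene (vertical axis) in each of the 10 tumors (horizontal axis), blue for normoglycemic and red for D30, with the group mean as a line and 1 SD as shading (n = 5). Adipoq, Lep, Retn and Plin1 are near 0 except in N4 (13.7 to 271.4 normalized counts), Fabp4 peaks there on top of a level in every tumor, and the remaining 5 genes do not peak in N4.

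Between the groups, 0 of the 10 genes passed limma's moderated test at a Benjamini-Hochberg adjusted p under 0.05, against a background of 2.76% of the 24560 genes tested. Without the adjustment 1 gene, Aqp7, had a p under 0.05, against 17.3% of all tested genes, and no member had groups that did not overlap, against 6.19%. edgeR's quasi-likelihood test and limma-voom on the recovered reads called 0 of the 6 members that passed their filter. DESeq2 called 1, Aqp7, and gave no adjusted p for Adipoq, Lep, Plin1 and Retn. On the log2(normalized count + 1) scale, the median difference of D30 minus normoglycemic tumors over the 10 genes was -0.59, and -0.58 over the 9 without Lep, beside -0.06 over all tested genes. Of these 9 genes, 8 had lower fitted values in D30 and Cidec had a higher one. The median of the 10 genes rested on N4, since it was 0.09 without that tumor, with 6 members higher and 3 lower.

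Aqp7 had a mean of 55.0 ± 10.6 normalized counts (SD, n = 5) in normoglycemic and 20.3 ± 13.0 in D30 tumors. Its log2 fold change was -1.61 (SE 0.467, 95% interval -2.62 to -0.61), with a limma p of 0.00421 and an adjusted p of 0.0896. A two-sided exact permutation test of its mean gave p = 0.0159, where 5 tumors against 5 allow no less than 0.00794. Its adjusted p was 0.0337 without T4 and 0.033 without T5, and between 0.0165 and 0.224 over all 22 alternative fits, with the value lower in D30 in every fit.

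Lpl had means of 1255 ± 274.8 and 1081 ± 1061, and a log2 fold change of -0.60 (SE 0.44, 95% interval -1.55 to 0.35, limma adjusted p = 0.521). The value depended on T4, since without it the log2 fold change was -1.07 with a limma adjusted p of 0.0222. It also depended on the tool. The log2 fold change was -0.59 with limma-voom (adjusted p 0.49), -0.20 and -0.22 with edgeR and -0.22 with DESeq2 (adjusted p 0.848 to 0.863). Without N4 and T4 together, limma gave -1.03 with an adjusted p of 0.0507.

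Plin4 differed by -0.58 (SE 0.388, 95% interval -1.42 to 0.26) and Fabp4 by -0.28 (SE 0.454, interval -1.26 to 0.70) on the log2 scale, with limma adjusted p of 0.478 and 0.798. Cidec differed by 0.02 with an interval of -0.34 to 0.38, the narrowest of the 10, and Lipe by -0.02 with an interval of -0.93 to 0.88. Their limma adjusted p were 0.964 and 0.985. Without T4 the log2 fold change of Lipe was 0.39, that of Plin4 -0.29 and that of Cidec -0.04.

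The 3 genes that N4 dominated had wide intervals. Adipoq differed by -1.14 (95% interval -3.99 to 1.72), Retn by -1.12 (-3.59 to 1.34) and Plin1 by -0.25 (-2.86 to 2.36), with limma adjusted p of 0.71, 0.665 and 0.943. DESeq2 fitted -4.45, -3.58 and -3.38 with no adjusted p. With a pseudocount of 0.5 in place of 1, limma gave -1.19, -1.28 and -0.07. Without N4, limma's main fit gave log2 fold changes of 0.27 for Adipoq, 0.04 for Retn, 1.08 for Plin1 and 0.10 for Fabp4. The lower D30 value of each thus turned into a higher one. For Adipoq, Retn and Plin1 the other tumors held 0 to 7 reads of each gene. A difference of these 3 genes in either direction was not detectable at these counts.

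**Figure D2:**
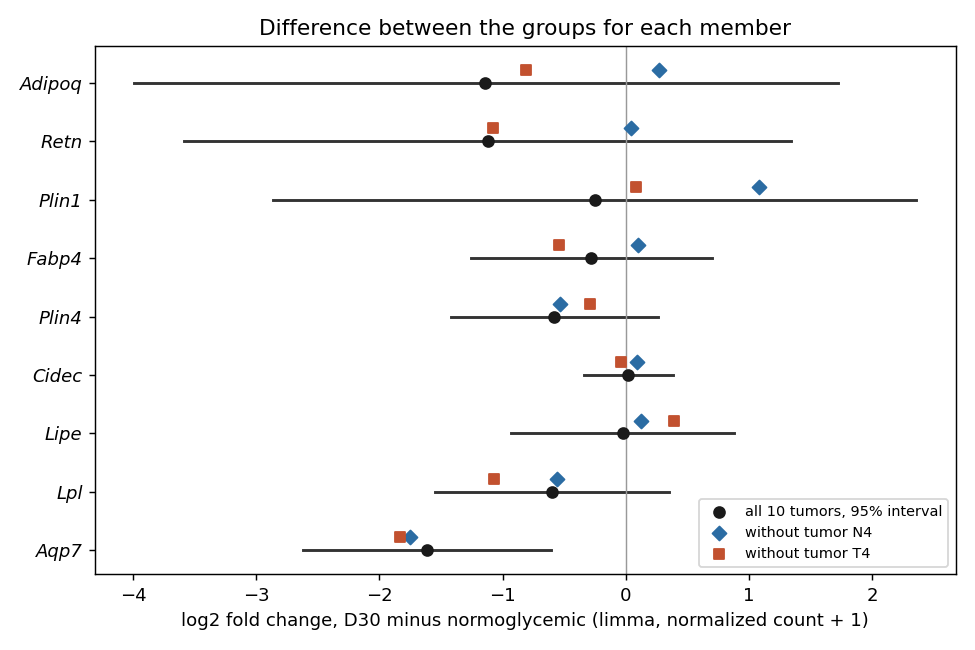
Black points give the log2 fold change (horizontal axis, D30 minus normoglycemic, limma on normalized count + 1) of 9 members (vertical axis) with the 95% interval as a line, and diamonds and squares give it without N4 and without T4. Lep, read in 1 tumor, is not plotted. Aqp7 is the only gene whose interval lies below 0 (-2.62 to -0.61). Without N4, Adipoq, Retn, Plin1, Fabp4 and Lipe (0.12) cross to above 0. Without T4, Plin1 (0.08) and Lipe (0.39) cross to above 0, Cidec crosses to below 0 (-0.04) and Lpl moves to -1.07.

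Per kilobase of exonic length, the levels of the 10 genes fell into 4 ranges in the 9 tumors other than N4. Cidec stood alone at 1020 ± 107 normalized counts per kilobase (SD, n = 9). Fabp4 (115 ± 49.2), Lpl (109 ± 74.1), Plin4 (95.7 ± 46.4) and Lipe (81.4 ± 30.5) followed and did not differ from their neighbors beyond these spreads. Aqp7 had 13.3 ± 8.05. Adipoq (1.54 ± 1.88), Retn (1.33 ± 1.42), Plin1 (0.289 ± 0.435) and Lep (0) came last and overlapped. In N4 the order changed, with Adipoq at 196 and Retn at 83.9 per kilobase, while Plin1 was at 25.0 and Lep at 4.09.

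Tumor by tumor, an adipocyte score was taken as the mean over the 10 genes of log2(normalized count + 1) relative to the mean of all tumors. It was 2.41 in N4, and in the other 9 tumors it ranged from -0.48 in T4 and T5 to -0.01 in T7. The 10 genes together made up 0.0229% of the reads of N4 (95% Wilson interval 0.0224 to 0.0234, counting error only), and 0.0102% in T5 to 0.0154% in T4 among the others. N4 was the highest tumor for 5 of the 10 genes, against 4.31% of all tested genes, and it was picked for its adipocyte values, so that this count describes it and tests nothing. T4 was the highest for 2 members and the lowest for 2.

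Over the 10 tumors, the 45 pairs of members had a median Pearson r of 0.29 (-0.73 to 0.88) and a median Spearman rho of 0.28. By a two-sided permutation test adjusted over the 45 pairs, 0 pairs passed with either measure. The 9 pairs with Lep, read in N4 alone, could not go below about 0.1 (lowest p 0.101), and 0 of the other 36 passed when adjusted on their own. The 6 pairs among Adipoq, Lep, Plin1 and Retn had r from 0.69 to 0.88, with a median of 0.85 and a median rho of 0.54. These values rested on 1 tumor, as their median r was 0.24 without N4, counting the pairs without Lep, which had no reads left. Without the 2 tumors farthest from the median score, N4 and T4, the median r over all pairs was -0.10, and within groups, after centring each, it was 0.26. The 15 pairs among the other 6 members had a median r of -0.01. Among them Plin4 and Lipe varied together (r = 0.75, rho = 0.42), and Lipe and Lpl varied in opposite ways (r = -0.73, rho = -0.59). With permutation p of 0.016 and 0.0144, both had an adjusted p of 0.303 for r. Without N4 and T4 these r were 0.41 and -0.65.

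A scan of all genes for those at least 5 times higher in N4 than in every other tumor, with at least 10 reads there, found 12. Of these, 4 are members (Adipoq, Lep, Plin1 and Retn) and 5 stand in the lists of other adipocyte genes, namely Cfd, Car3, Pck1, Slc7a10 and Acvr1c. The remaining 3 were Cyp2e1, a cytochrome P450 enzyme, Tshr, the thyrotropin receptor, and Chrdl1, a secreted inhibitor of bone morphogenetic proteins. Cfd, the fat-cell protease adipsin, had 2223.8 normalized counts in N4 and 0.0 to 94.6 in the other tumors. The carbonic anhydrase gene Car3 had 851.5 against 0.0 to 10.3, Cyp2e1 had 409.3 against 0.0 to 1.0, and Pck1, an enzyme of glycerol synthesis in fat, had 109.6 against 0.0 to 6.9. The same scan found 42 genes in N1, 51 in T4, 209 in T5 and 1 to 6 in each of the other tumors, with no member among them, so that having such genes was not particular to N4.

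**Figure D3:**
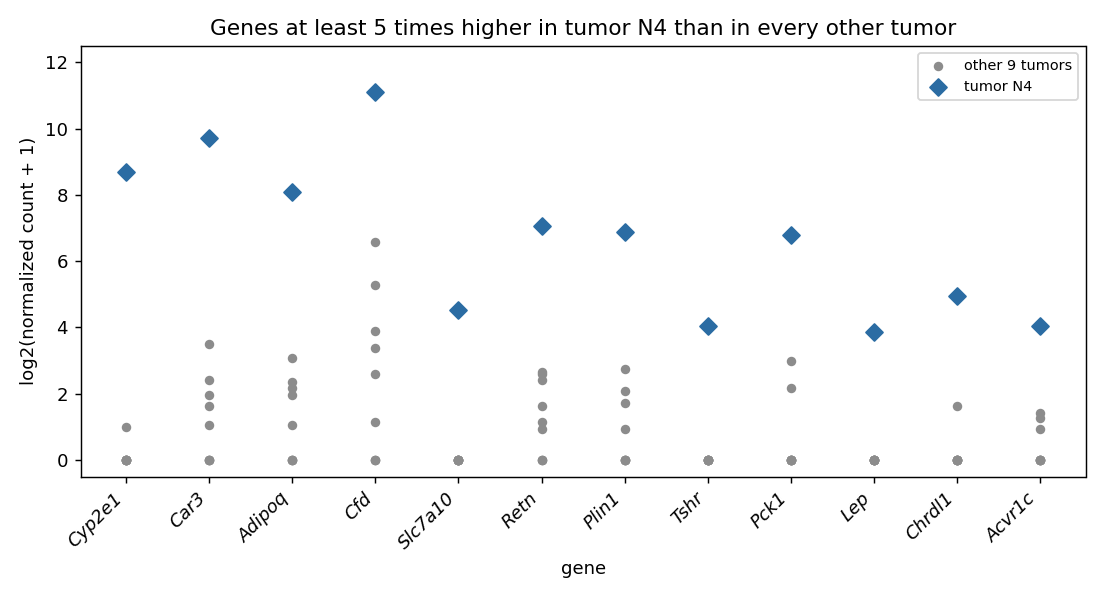
The 12 genes at least 5 times higher in N4 than in any other tumor (horizontal axis) are plotted as log2(normalized count + 1) (vertical axis), with N4 as a diamond and the other 9 tumors as gray points. N4 reaches 2223.8 normalized counts for Cfd and 13.7 for Lep, while the gray points stay at or below 94.6.

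Of the 17352 tested non-member genes with a mean of at least 10, the 15 most like the adipocyte score over the 10 tumors were led by Cyp2e1 (r = 0.97) and Car3 (0.92). Dnah8 and Pck1 followed at 0.80. The others were Gm43682, Gtpbp4, Klk7, Dnajc2, Tamm41, Apoc1, Cd209f, Cfd, Mtch1, Ube2cbp and Bbs9, with r from 0.73 to 0.79. Cyp2e1, Car3, Pck1, Apoc1 and Cd209f reached the mean of 10 through N4 alone. As N4 also sets the score, their r describes N4 and tests nothing. For 6 of the 15, among them Gtpbp4 (2177.2 against 1646.1 to 1974.9), N4 was 1.10 to 1.27 times the highest other tumor. These correlations describe the order of 10 tumors with N4 far from the rest, and without N4 they ranged from -0.69 for Pck1 to 0.67 for Tamm41.

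Other genes of the adipocyte program followed N4 in part. N4 was the highest tumor for 1 of 13 adipocyte transcription factors, 2 of 7 other adipokines and 6 of 17 other adipocyte-enriched genes. It was highest for 1 of 12 genes of triacylglycerol synthesis and lipolysis and 0 of 9 other lipid droplet proteins. The share over all tested genes was 4.31%. As N4 was picked for its adipocyte values, these counts describe it and test nothing. Of 13 adipocyte transcription factors tested, limma called 0 higher and 1 lower in D30, edgeR called 0, and DESeq2 called 2. Pparg, the master regulator of fat cell formation, had 2164.3 to 3091.8 normalized counts in normoglycemic and 2209.1 to 4245.7 in D30 tumors, and Cebpa, which acts with it, had 306.3 to 535.7 and 264.9 to 408.9. Neither was highest in N4, whereas Mlxipl was (50.3, with 33.3 in N2 next). Ppargc1a, a coactivator of mitochondrial genes, fell by 1.56 on the log2 scale (SE 0.381, limma adjusted p = 0.0478), from 159.9 to 365.6 in normoglycemic tumors to 46.3 to 145.4 in D30. That call was lost without N1, N2, N4, N5, N6, T1, T2 or T7 (limma adjusted p 0.0575 to 0.151), with edgeR (0.0502 and 0.0513), with upper-quartile scaling (0.0501) and with no filter (0.0571). Prdm16 (1.73, adjusted p = 0.212) and Mlxipl (-1.50, adjusted p = 0.295) did not pass limma's test, and DESeq2 called Prdm16.

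Of 7 other adipokines tested, 1 passed limma's test, 0 passed with edgeR and 2 with DESeq2 (Rbp4 and Rarres2). Rbp4, the carrier of retinol in blood, fell by 1.0 (SE 0.242, limma adjusted p = 0.0455), from 12621.4 to 14246.4 in normoglycemic tumors to 4103.1 to 10118.1 in D30. That call was lost without N1, N2, N4, N5, N6, T1, T2 or T7 (limma adjusted p 0.0849 to 0.12), with edgeR (0.0562 and 0.0604), with upper-quartile scaling (0.0795) and with no filter (0.0641). Rarres2 (1.16) and Nrg4 (-0.46) had limma adjusted p of 0.275 and 0.504. Haptoglobin (Hp), made by liver and fat, had 2648.7 in N4 and 65.5 to 847.1 in the other tumors. Of 17 other adipocyte-enriched genes 0 passed by limma, edgeR or limma-voom, 1 (Gpd1) passed by DESeq2, and 3, with Acvr1c, had an unadjusted limma p under 0.05. N4 was the highest tumor for 6 of the 17, against 4.31% of all tested genes. Of these genes, Gpd1 (0.78) had a limma adjusted p of 0.155. Acvr1c, read in 4 tumors, passed the filter on low values through N4 alone, so that its test is not given. The adrenergic receptor gene Adrb3 had 82.2 in N4 but 91.6 in T2 and 111.8 in T7, and the glucose transporter gene Slc2a4 had 19.2 in N4 with 0.0 to 25.2 elsewhere.

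Of 12 genes of triacylglycerol synthesis and lipolysis, limma and edgeR called 1, Dgat2, and DESeq2 called Dgat2 and Agpat2. Dgat2, which adds the last fatty acid to triacylglycerol, rose by 1.15 (SE 0.263, limma adjusted p = 0.034), from 691.2 to 1581.5 in normoglycemic tumors to 1882.3 to 3782.1 in D30. That call was lost without N1, N2, N5, N6, T1, T2, T5 or T7 (limma adjusted p 0.0508 to 0.113), and with library size alone (0.0724). Agpat2 (0.64), earlier in the same pathway, had groups that did not overlap and a limma adjusted p of 0.127, and Gpam had -0.49 with 0.26. Pnpla2, the lipase that precedes Lipe, had 1562.6 to 6212.3 over the 10 tumors with a limma adjusted p of 0.597.

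Of 9 other lipid droplet proteins 0 passed limma's test. An unadjusted limma p under 0.05, with the value higher in D30, was found for 4, against 17.3% of all tested genes in either direction. edgeR called Cideb and Hilpda, and DESeq2 also Plin2 and Plin5. The median log2 fold change was 0.83 in these 9 genes against -0.59 in the members. The member median included Lep and rested on N4, being 0.09 without that tumor. Hilpda (1.92), an inhibitor of lipolysis, had 962.3 to 2050.2 in normoglycemic tumors and 2093.9 to 23829.4 in D30, Cideb had 1.61 and Plin5 2.39, with limma adjusted p of 0.0863, 0.0999 and 0.113. Plin2, the perilipin of most tissues, had 4498.9 to 6701.6 and 4887.7 to 18915.1 (adjusted p = 0.176). N4 was highest for 0 of the 9.

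None of 8 tested partners of lipoprotein lipase, 5 adipokine receptors, 5 brown adipocyte genes and 16 paralogs of the members passed limma's adjusted test. An unadjusted limma p under 0.05 was found for 0, 1, 1 and 4 of them, against 17.3% of all tested genes. DESeq2 called Adipor1 among the receptors and Cideb, Fabp2, Plin2 and Plin5 among the paralogs, edgeR called Cideb, and neither called a partner or a brown adipocyte gene. Among the partners, Cd36 (0.86), Angptl8 (0.34) and Apoc2 (-0.38) came nearest, with adjusted p of 0.631 to 0.84. Of the receptors, Adipor1 (0.63), a receptor of adiponectin, did not overlap between the groups and had a limma adjusted p of 0.126, Cdh13 had 0.44 and Cap1 0.11. Ucp1, the heat-producing protein of brown fat, had at most 11.5 normalized counts in any tumor, and Lhx8, Cidea and Dio2 had at most 23.1. Among the paralogs, Fabp2 (1.53) had a limma adjusted p of 0.107, and Plin3 had 4801.2 to 13380.8 over all tumors.

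The markers of other cell types give the setting of these values. N4 ranked between the second and the eighth of the 10 tumors in the summed counts of the 9 other cell type lists, and was the highest in none. Pancreatic acinar markers summed to 68054.2 normalized counts in N6, 31048.4 in N2, 6833.3 in T4, 3429.8 in N4 and 172.9 to 774.4 in the other 6, so that acinar and adipocyte reads were not highest in the same tumor. Endothelial markers summed to 14213.8 to 21564.2 in normoglycemic and 8689.6 to 12788.0 in D30 tumors. The endothelial cadherin gene Cdh5 fell by 1.45 in D30 (SE 0.265, limma adjusted p = 0.0117), and 1 of the 10 endothelial genes passed. Of 12 macrophage genes limma and edgeR called 2, and DESeq2 also Mrc1. Of these, Cd163 fell by 2.12 (SE 0.422, limma adjusted p = 0.0174) and Csf1r fell by 1.06 (SE 0.256, limma adjusted p = 0.0449). The first call was lost without N2 (adjusted p 0.0656) and the second without N1, N2, N4, N5, N6, T1, T5 or T7 (0.0511 to 0.147). No gene of the fibroblast and preadipocyte, mesothelial, skeletal muscle, acinar, tumor epithelium, lymphocyte or neutrophil lists passed limma's test. Of the 10, 6, 5, 11, 8, 9 and 9 tested, 6, 1, 2, 3, 7, 0 and 4 had an unadjusted limma p under 0.05. The share over all tested genes was 17.3%. Those of the fibroblast and acinar lists were lower in D30, and those of the mesothelial, skeletal muscle and neutrophil lists higher. Of those in the tumor epithelium list, 6 were higher and 1 lower. Of these 7 lists edgeR called 2 genes (Upk3b and Mmp8), limma-voom called 1 (Krt18), and DESeq2 called 2, 1, 1, 0, 3, 0 and 2. Since endothelial cells and macrophages also express Fabp4 and Lpl, these values stand beside those of both genes, and their part in them was not tested.

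**Figure D4:**
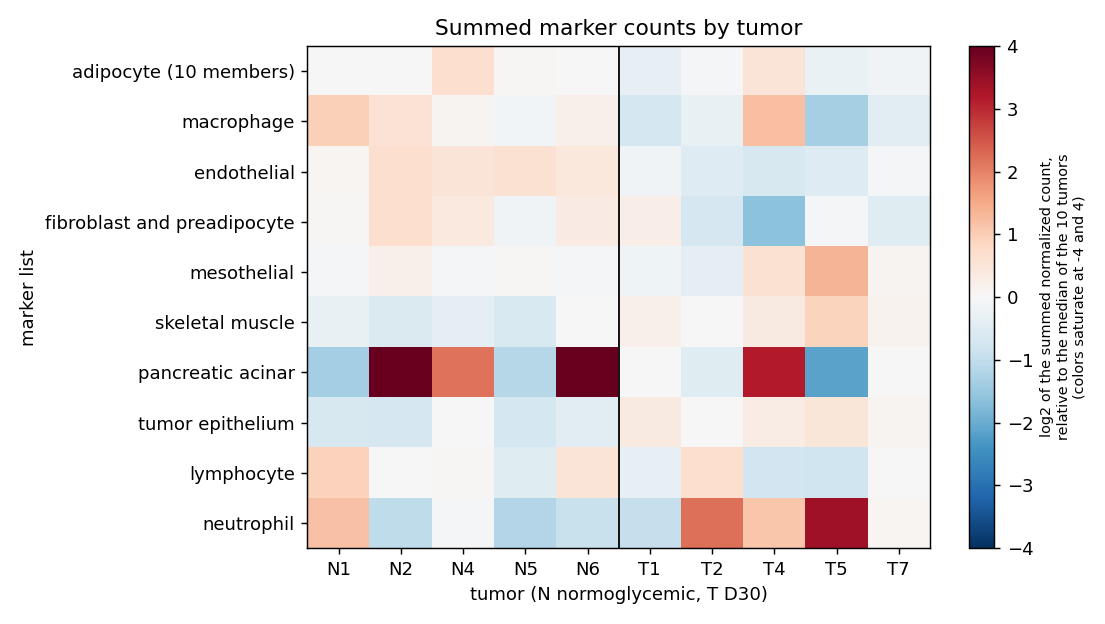
Rows are marker lists and columns the 10 tumors, and color gives log2 of the summed normalized count of a list relative to its median over the tumors, with colors saturating at -4 and 4. The adipocyte row is highest in N4 (7373.1) and then T4 (6613.5), the acinar row in N6 and N2, and the macrophage row in T4 (74652.2). Most of the adipocyte sum of T4 came from Lpl (2957.5) and Cidec (2301.7). T4 held 1 read of Adipoq, Lep, Plin1 and Retn together.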

How the data were processed

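RNA was sequenced from 10 KPC orthotopic tumors with strand-specific libraries. The authors trimmed reads with Trim Galore, aligned them with STAR 2.7.0e, named RSEM and DESeq2, and deposited a normalized signal for each gene in each tumor, of the kind that DESeq2 writes (reads over a size factor). Methods name hg38 and the processing notes GRCm39, while the identifiers are of mouse. The annotation release and strand setting are not given in the sources used here. Positions and names were taken from GENCODE M21 (GRCm38), which named 94.1% of identifiers, and promoters from RefSeq.

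Dividing by the step of each column gave whole reads for 100.0% of values (tolerance 0.01). The tested genes were 24560 with a mean of at least 1, by limma 3.58.1 (R 4.3.3) with a mean-variance trend on log2(normalized count + 1), 5 tumors against 5, no covariate, Benjamini-Hochberg adjusted p under 0.05. Alternatives were edgeR 4.0.16, limma-voom and DESeq2 1.42.0 on recovered reads, other scalings, pseudocounts and filters, and leaving out tumors. The edgeR fit planned for raw counts gave way to limma because the values are normalized. Scripts were tested on simulated data. Correlations used 100000 permutations. The members and lists were chosen with earlier results of these data known. Genes named are the 10 members, in each pathway list those called or else the 3 with the smallest p, in each cell type list those called and the most expressed, and the 15 genes most like the adipocyte score. Others (the genes highest in N4, Hp, Pparg, Cebpa, Gpihbp1, Fabp5, Adrb3, Slc2a4, Pnpla2, Plin2, Plin3, Ucp1, Epcam, and those named for T4) were chosen after their values were seen, as were those called by another tool only. The values of some genes that meet this rule, and some alleles, are not reported here.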

Additional observations from a re-analysis of the deposited data

Results flagged for a closer look

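Within each group of 5 tumors, a value was marked when its gap to the nearest other tumor took up most of the range of the group (Dixon's test at 95%). Chance marks about 1 in 20 groups where values are normally distributed, which does not hold for counts near 0. There, 1 read in a group of zeros is marked, as for Cyp2e1 in T1. Of the 24 groups examined for the members, their score and their share, 9 were marked, 8 of them for N4 and 1 for T4. The groups are not independent, since they hold the same tumors and the score and share are built from the same genes. The count therefore describes these tumors and tests nothing. Among the normoglycemic tumors, N4 lay above the others for Adipoq (271.4 normalized counts, nearest 3.5), Lep (13.7, nearest 0.0), Plin1 (116.0, nearest 0.9), Fabp4 (1723, nearest 645.9) and Retn (132.5, nearest 4.3). It lay below the others for Aqp7 (36.5, nearest 55.8). The adipocyte score of N4 was 2.41 and its share of reads from the 10 genes was 0.0229%, against 0.0153% in the nearest tumor. Among the D30 tumors, T4 lay above the others for Lpl (2957, nearest 739.3). Of 144 groups examined for the other named genes, 40 were marked, 16 of them for N4, 10 for T4 and 4 for T5. The genes most like the score are among these and were picked for N4.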

How the results depend on the processing

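No paired analysis was possible because the columns of the table carry numbers that do not match the replicate numbers of the labels. The sources used here also describe no pairing of mice between the groups, and the paper states that mice were randomized to treatments. The replicate numbers are therefore not taken to mark pairs. Over all genes 678 passed (344 higher and 334 lower in D30), 1982 with DESeq2, 1309 without N4 and T4 together, and 279 (without N2) to 1573 (without T4) with 1 tumor left out. Scaling by library size alone gave 240 higher and 624 lower, with a median over all genes of -0.27. Members called numbered 0, and 1 with DESeq2, with library size alone and without N4 and T4 together (Aqp7 each time, log2 fold change -1.45, -1.83 and -1.96, adjusted p 0.0165, 0.0414 and 0.0427), and 0 to 2 with 1 tumor left out (Aqp7 and Lpl without T4, Aqp7 without T5). The median of the members ranged from -1.0 (DESeq2) to 0.09 (without N4).

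Of 201 member values under alternatives with an adjusted p, 174 kept direction and side of the threshold, and 4 more (Adipoq, Lep, Plin1 and Retn with DESeq2) had none. Without N4 and T4 together, Adipoq turned to 0.60, Plin1 to 1.41, Retn to 0.08 and Lipe to 0.53. Without 1 tumor, the log2 fold change ranged from -1.75 to 0.27 for Adipoq, -0.64 to 1.08 for Plin1 (0.08 without T1 or without T4), -0.06 (without N2) to 0.09 for Cidec (-0.04 without T4), -0.57 to 0.10 for Fabp4, -0.27 to 0.39 for Lipe (0.02 without N2, 0.12 without N4, 0.01 without N6), -1.07 to -0.29 for Lpl, -1.72 to 0.04 for Retn and -1.88 to -1.29 for Aqp7. Lipe was also 0.09 and 0.07 with edgeR (TMM and DESeq2 size factors), 0.08 with DESeq2 and 0.02 with upper-quartile scaling, and Cidec was -0.20 with library size alone. The score of N4 was 5.09 over Adipoq, Lep, Plin1 and Retn, chosen after seeing the data. Without Fabp4, Lpl and Retn, the share of reads was 0.0128% in N4, against 0.0062% (T4) to 0.0116% (N5) in the other tumors. The lead of N4 was thus smaller than over all 10 genes (0.0229% against 0.0102% to 0.0154%). At 3 times, in place of 5, 19 genes were highest in N4, and 10 at 10 times. Apart from the tumors left out, the cause of these changes was not tested. For genes with under 10 reads in 9 tumors, depth limits any comparison of the groups.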
